A study of Mus musculus with 2 samples.

Results

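The melanin synthesis genes described here are 8 genes taken by symbol from the 48816 features of the deposited matrices: Tyr, Dct, Tyrp1, Pmel, Mlana, Slc45a2, Slc24a5 and Oca2. All 8 were found, each on 1 feature. They were measured by single nucleus RNA-Seq of the stria vascularis (SV), the pigmented strip of the cochlear lateral wall, from CBA/J mice at postnatal day 30 (P30). By the study's account, nuclei of the MethFix library were fixed in methanol after isolation from pooled mice, between 5 and 6 by the sample labels and 5 by the methods. By the same account, the dissected tissue of the RNAlater library was kept in RNAlater before nuclei were isolated, from 10 mice by the labels and 6 by the methods. The strip was recognised by its pigment at dissection, and no genotype, transgene or drug was compared.

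Melanin is made in melanosomes, organelles of the lysosome family. Tyrosinase (Tyr) oxidises tyrosine, and dopachrome tautomerase (Dct) and tyrosinase-related protein 1 (Tyrp1) act on later intermediates of the black and brown pigment. Pmel forms the fibrils on which pigment is laid down, Mlana is a melanosomal membrane protein that binds Pmel, and Slc45a2, Slc24a5 and Oca2 are membrane transporters or channels that set the ionic conditions in the organelle. In the SV the pigment cells are the intermediate cells, which lie between the marginal cells that face the endolymph and the basal cells that face the spiral ligament, and which generate the endocochlear potential through a potassium channel.

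The promoters of the 3 enzyme genes share a short stretch, which is printed because Tyr, Dct and Tyrp1 stood at very different levels in the counts below. Of the 8 genes, 5 matched the RefSeq promoter table of build GRCm38.p6, namely Tyr, Dct, Tyrp1, Slc24a5 and Oca2. The letters TCATGTG, searched on both strands in the 250 bases before the annotated start, were found in 4 of these 5 windows and in 1068 of all 32851 windows (3.25%). TCATGTG holds the E-box CATGTG bound by MITF, the transcription factor of melanocytes, as known from other work. The longer M-box, a motif of pigment gene promoters, contains these letters. It was found upstream of Tyr and Tyrp1 and in 7 of all 32851 windows (0.0213%). As the M-box is already known from pigment gene promoters, its matches at Tyr and Tyrp1 are no independent finding. The shares of all windows describe how rare the letters are, for the M-box and the shorter stretch within it, and show no enrichment. The matches are given with 10 bases on either side, in capitals for TCATGTG, and those of Slc24a5 and of the distal Dct match are read on the strand opposite to the gene.
Tyr, chromosome 7, 87493518 to 87493544: aaaaagttagTCATGTGctttgcagaa
Tyrp1, chromosome 4, 80834156 to 80834182: ggggagggagTCATGTGctgcctagta
Dct, proximal match, chromosome 14, 118052381 to 118052407: gcacttagggTCATGTGctaacaaaga
Dct, distal match, chromosome 14, 118052462 to 118052488: tttattgggcTCATGTGtcccagccaa
Slc24a5, chromosome 2, 125068104 to 125068130: ttatgctgaaTCATGTGagcagtctcc
The match ended 15 bases before the RefSeq start of Tyr, 40 before that of Tyrp1, 144 and 225 before that of Dct and 6 before that of Slc24a5, and the Tyrp1 match lies inside the gene as GENCODE M21 draws it. These letters do not occur in the Oca2 window. The 250 bases before the start are printed for the most abundant genes, Tyr (chromosome 7, 87493513 to 87493762, minus strand) and Dct (chromosome 14, 118052247 to 118052496, minus strand), with the matches in capitals.
Tyr: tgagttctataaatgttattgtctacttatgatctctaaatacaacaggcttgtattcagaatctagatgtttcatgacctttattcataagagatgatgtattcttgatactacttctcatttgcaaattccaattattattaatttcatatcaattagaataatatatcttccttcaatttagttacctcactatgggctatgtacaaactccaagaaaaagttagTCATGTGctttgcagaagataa
Dct: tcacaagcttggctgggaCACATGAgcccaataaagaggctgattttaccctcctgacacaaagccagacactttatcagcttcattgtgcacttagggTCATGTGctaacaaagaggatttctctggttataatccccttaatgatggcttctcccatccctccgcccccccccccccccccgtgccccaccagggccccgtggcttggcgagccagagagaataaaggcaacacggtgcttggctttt
A match of letters is a description of the window and no evidence of binding in these nuclei.

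The MethFix matrix holds 4748 barcodes and 21027671 unique molecular identifiers (UMIs, 1 per captured RNA molecule), and the RNAlater matrix 3868 barcodes and 17681824 UMIs. The same 3323 barcode sequences were present in the 2 matrices, equal to 70.0% of MethFix and 85.9% of RNAlater, and 2120 of the 2125 nuclei named in both had the same name although each matrix was clustered alone. The matrices therefore count as 1 sample, no p-value is given, and values are set side by side. Which preservation the nuclei with shared barcodes had cannot be told from the counts, and values alike in both libraries are no replication. After filtering, 3372 MethFix and 2311 RNAlater nuclei remained, of which clusters named by marker genes held 854 and 522 intermediate nuclei and 2302 and 1636 nuclei of other named classes, while 216 and 153 nuclei stayed unnamed. The unit of every level is CPM, a gene's UMIs per 1000000 UMIs of its class. Intervals are exact 95% intervals, Poisson for UMIs and binomial (Clopper-Pearson) for shares, and cover counting error only.

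Intermediate nuclei were named from Kcnj13, Met and Mitf, and the 8 genes and the pathway list below were left out of the clustering. Kcnj13, an inward rectifier potassium channel, stood at 209 CPM in MethFix and 205 in RNAlater, Met, a receptor tyrosine kinase, at 2945 and 3083, and Mitf at 1525 and 1655. In the other named classes these genes stood at 11.0 and 11.5, at 31.3 and 27.8, and at 401 and 375. Mitf was not particular to the class, with 1897 and 2234 in fibrocyte nuclei and a log2 ratio of 1.93 and 2.14 over the other classes. These values chose the class and are no finding. All 522 RNAlater intermediate nuclei were also intermediate in MethFix, and 557 of the 854 MethFix ones carried a barcode found in both matrices.

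Dct and Tyr were among the most abundant RNAs of intermediate nuclei, Slc45a2 was abundant, Mlana and Slc24a5 were low, and Tyrp1, Pmel and Oca2 were close to nothing in the same nuclei. In intermediate nuclei, the 8 genes together made up 27214 CPM (27039–27391) in MethFix and 25384 (25199–25570) in RNAlater. In the other named classes they made up 706 (688–725) and 609 (591–627), which is 2.60% and 2.40% of the intermediate level. In MethFix this share was 11.5% without the limit of 8000 counts per nucleus, 4.16% without the mitochondrial limit and 4.31% with doublets kept, and in RNAlater it stayed between 2.40% and 2.65% without either limit. With barcode classes taken straight from UMIs of Kcnj13, Met and Mitf, at least 2 of them against none, it was 4.12% in MethFix and 3.74% in RNAlater.

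Among the enzymes, Dct (ENSMUSG00000022129.3, chromosome 14, 118012790 to 118052244, minus strand of GRCm38) stood at 21345 CPM (21190–21501) in MethFix and 19187 (19027–19349) in RNAlater. It ranked 2 among the 18008 and 17780 genes with a UMI in intermediate nuclei, at 2.13% and 1.92% of all their UMIs. Tyr (ENSMUSG00000004651.6, chromosome 7, 87424771 to 87493512, minus strand) ranked 3, at 4939 (4865–5015) and 5220 (5136–5304). Tyrp1 (ENSMUSG00000005994.14, chromosome 4, 80834123 to 80851719, plus strand) had 1 UMI among the 854 MethFix and 1 among the 522 RNAlater intermediate nuclei, 0.295 CPM (0.00747–1.64) and 0.351 (0.00889–1.96). Over all deposited barcodes Tyrp1 had 6 UMIs in MethFix and 4 in RNAlater, against 140569 and 90513 for Dct. The 3 related enzymes were thus split, with Dct and Tyr near the top of the profile and Tyrp1 almost undetected.

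Of the melanosome proteins, Pmel (ENSMUSG00000025359.9, chromosome 10, 128704195 to 128720238, plus strand) had 7 UMIs in intermediate nuclei of MethFix and 2 in RNAlater, 2.07 CPM (0.831–4.26) and 0.703 (0.0851–2.54). The 7 MethFix UMIs came from 4 nuclei, 4 of them from 1 nucleus. Mlana (ENSMUSG00000024806.3, chromosome 19, 29697824 to 29708634, plus strand), whose product binds that of Pmel, had 219 and 199 UMIs, 64.7 CPM (56.4–73.8) and 69.9 (60.5–80.3). The fibril gene Pmel was thus below Mlana, with intervals far apart, in both matrices.

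Of the transporters, Slc45a2 (ENSMUSG00000022243.10, chromosome 15, 11000721 to 11029233, plus strand) stood at 818 CPM (788–849) in MethFix and 858 (824–893) in RNAlater, and ranked 101 and 102. Slc24a5 (ENSMUSG00000035183.14, chromosome 2, 125068124 to 125088677, plus strand), a potassium-dependent sodium/calcium exchanger, stood at 44.9 (38.0–52.6) and 46.4 (38.8–55.0). Oca2 (ENSMUSG00000030450.11, chromosome 7, 56239760 to 56536518, plus strand), which takes part in chloride transport of the melanosome, had 1 and 5 UMIs, 0.295 (0.00747–1.64) and 1.76 (0.570–4.10). Outside intermediate nuclei Oca2 was scarce too, with 17 MethFix and 23 RNAlater UMIs over all other named classes, 2.12 and 3.14 CPM. The highest Oca2 level was in root nuclei, at 9.06 (1.10–32.7) on 2 UMIs and 15.9 (4.33–40.7) on 4 UMIs, and these intervals overlap those of Reissner's membrane nuclei.

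**Figure D1:**
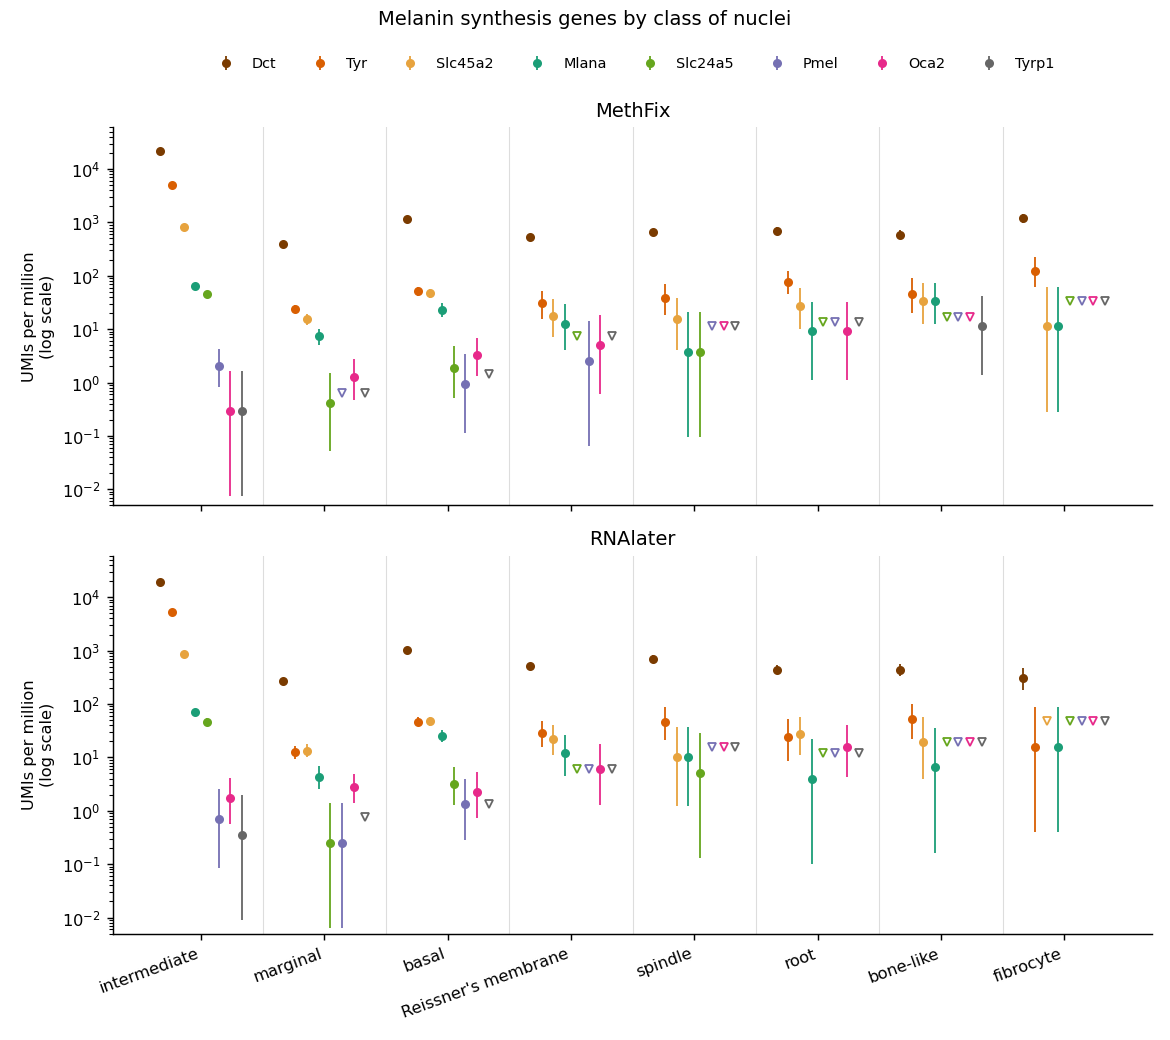
Level of each of the 8 genes (CPM, log axis) in 8 classes of nuclei, MethFix above and RNAlater below. Points are the level of a class, bars the exact 95% Poisson interval, and open triangles the limit that 0 UMIs allow (3 UMIs). Endothelial and pericyte nuclei, of which no library had more than 10, are not drawn. Dct and Tyr top the intermediate class in both libraries, and Dct keeps the first place in every other class at a much lower level.

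To compare genes per length, they were also ordered per kilobase of merged exons, although UMIs of a 3′ kit mark transcript ends and whether they scale with length was not tested. By that level in MethFix intermediate nuclei, Dct stood at 3621 CPM per kilobase, Tyr at 695, Slc45a2 at 274, Mlana at 61.2 and Slc24a5 at 19.3. In RNAlater these levels were 3255, 734, 288, 66.1 and 19.9, in the same order. Pmel followed at 0.902 and 0.307, Tyrp1 at 0.104 and 0.124 and Oca2 at 0.0745 and 0.443, and with 1 to 7 UMIs each the order of these 3 changed between matrices and could not be set at this depth. Per kilobase of the whole gene span, introns included, the order of the upper 5 was unchanged, from 541 for Dct to 2.18 for Slc24a5 in MethFix and from 486 to 2.26 in RNAlater. The lengths, and the gene coordinates printed above, are those of GENCODE M21, where Dct, Pmel and Mlana have a later version number than in the deposited features. In GENCODE M21 no other gene overlaps Tyrp1, Tyr, Dct, Mlana or Slc45a2. Pmel overlaps Cdk2 and Dgka, Slc24a5 overlaps Myef2 and Oca2 overlaps Gm44506, each on the opposite strand, and whether reads were split with these was not tested.

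Counted per nucleus, no intermediate nucleus of either library was without a UMI of the 8 genes. They held a median of 107 such UMIs in MethFix (7–301) and 136 in RNAlater (11–293). Dct had a median of 83 UMIs per nucleus (10th to 90th percentile 30 to 142) in MethFix and 103 (60–152) in RNAlater, and Tyr a median of 17 (3–40) and 27 (10–50). Dct exceeded Tyr in 847 of 854 MethFix nuclei (99.2%) and in 518 of 522 RNAlater nuclei (99.2%). The excess of Dct over Tyr was therefore seen in nearly every intermediate nucleus.

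Tyr and Dct were found together in 841 MethFix nuclei (98.5%) and in all 522 RNAlater nuclei. Slc45a2 had a UMI in 85.0% of MethFix nuclei (82.4%–87.3%) and in 96.7% of RNAlater nuclei (94.8%–98.1%), Mlana in 21.4% (18.7%–24.3%) and 28.4% (24.5%–32.4%), and Slc24a5 in 13.7% (11.5%–16.2%) and 18.2% (14.98%–21.8%). RNAlater nuclei were deeper, with a median of 5445.5 UMIs against 4029.5. Thinned to 1000 UMIs per nucleus (817 MethFix nuclei, with 37 shallower ones left out, and all 522 of RNAlater), the shares were 53.4% and 51.9% for Slc45a2, 5.75% and 5.17% for Mlana and 3.55% and 4.41% for Slc24a5. At equal depth the MethFix and RNAlater shares lay within 2 percentage points for these 3 genes. All 522 RNAlater nuclei were also MethFix intermediate nuclei, so these shares are not independent. Most nuclei had UMIs of 3 of the 8 genes, 59.5% in MethFix and 55.7% in RNAlater, and none had UMIs of more than 5.

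**Figure D2:**
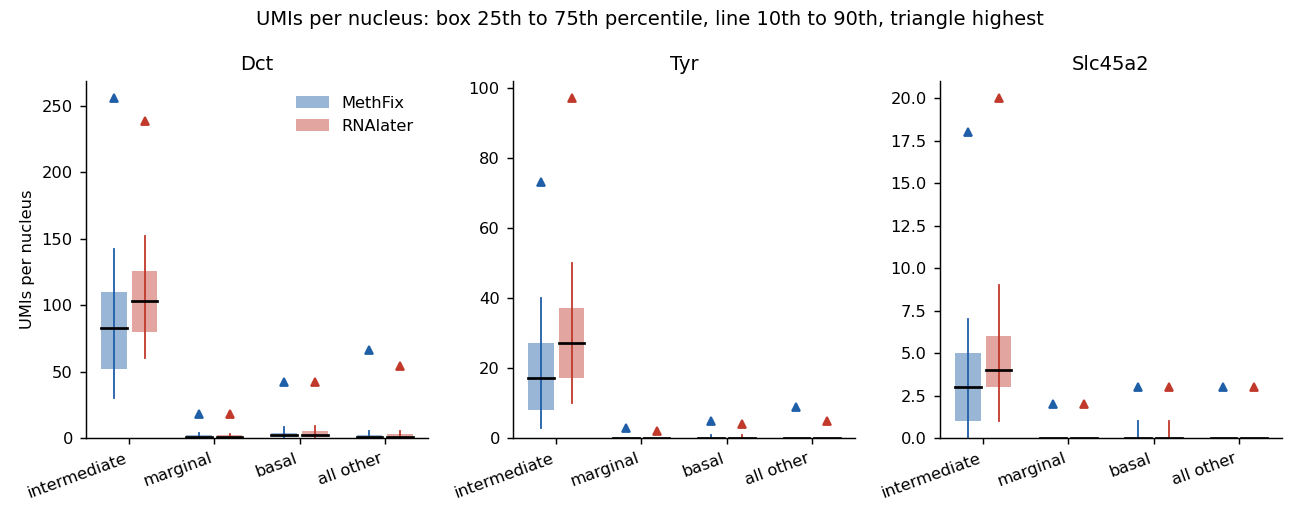
UMIs per nucleus of Dct, Tyr and Slc45a2 in intermediate, marginal, basal and all other named nuclei of MethFix (blue) and RNAlater (red). Boxes span the 25th to 75th percentile with the median in black, lines the 10th to 90th percentile and triangles the highest nucleus. The median Dct count is 83 and 103 in intermediate nuclei, against 1 in marginal and 2 in basal nuclei of both libraries.

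Against all other named classes together, 5 of the 8 genes were called higher in intermediate nuclei of each library, where a call means a log2 ratio of CPM of at least 2 on at least 20 UMIs. By the same rule 3.96% of the 13548 genes tested in MethFix and 3.94% of the 13468 tested in RNAlater were called higher. The median log2 ratio over all genes tested was -0.17 and -0.15. The 20 UMIs were counted over both sides together, so a gene could pass through intermediate nuclei alone. Slc24a5 did so, with 152 UMIs there against 7 in the other classes of MethFix and 132 against 9 in RNAlater. Only 5 of the 8 genes had the 20 UMIs in MethFix and 6 in RNAlater, where Oca2 passed with a log2 ratio of -0.84 (-2.59 to 0.59), so these counts do not speak for all 8. With a log2 ratio of at least 1, the same 5 genes were called in each library, beside 9.29% and 9.62% of all genes, and with a ratio of at least 3 all of these but Mlana were called, beside 2.16% and 2.12%. With barcodes found in both matrices, 5 were called in each, beside 4.05% and 3.93%.

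Tyr had the highest ratio, with a log2 ratio of 7.14 (6.97–7.32) in MethFix and 7.64 (7.43–7.85) in RNAlater, and 98.4% of its MethFix UMIs in named nuclei came from the intermediate class. Slc24a5 followed in MethFix at 5.68 (4.60–7.02), and stood at 5.24 (4.27–6.40) in RNAlater. Dct had 5.08 (5.04–5.12) and 5.15 (5.10–5.19), and Slc45a2 5.06 (4.85–5.28) and 5.11 (4.89–5.34). Mlana had the lowest ratio of the 5 called, 2.39 (2.04–2.74) and 2.61 (2.23–2.99). The ratio of Dct, the most abundant of the genes, was thus below that of Tyr with intervals apart, and the ratio of Mlana was below those of the other 4.

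Without the upper limit of 8000 counts per nucleus, Mlana lost its call in MethFix, where 4 of the 6 members tested were called. In that setting 14791 genes were tested, and the share called over all of them was not computed. With barcode classes taken straight from UMIs of Kcnj13, Met and Mitf, Mlana lost its call in RNAlater, at a log2 ratio of 1.73. In that last setting 1023 MethFix and 686 RNAlater barcodes had a UMI of at least 2 of these genes. Of them 75.9% and 75.2% were intermediate nuclei. They were set against the 994 and 624 barcodes with a UMI of none, not against the other named classes. In this setting 5 and 4 members were called, beside 2.87% and 3.09% of all genes. Intermediate nuclei with a barcode found in 1 matrix alone numbered 297 in MethFix and 0 in RNAlater. In these 297 nuclei Tyr stood at 3495 CPM, Dct at 20575, Slc45a2 at 615, Mlana at 78.3 and Slc24a5 at 30.0, and 5 members were again called, beside 3.71% of all genes tested there. For Tyr this compares with 5362 in the 557 MethFix nuclei whose barcodes are in both, and the log2 ratio over the other classes was 5.49 in the first and 7.62 in the second set. The sets differ in depth and mitochondrial share too, since of the 233 nuclei of the shallowest MethFix intermediate cluster, with a median of 2369 UMIs and 1.58% mitochondrial UMIs, 31 had a barcode in both matrices, and the part of this in the Tyr level was not tested.

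The other classes held a residue of these RNAs, and Dct made up most of it. Dct stood at 388 CPM (371–406) in marginal, 1167 (1121–1214) in basal, 535 (466–612) in Reissner's membrane, 652 (558–758) in spindle and 684 (579–802) in root nuclei of MethFix. In RNAlater it stood at 275 (259–292), 1037 (995–1081), 505 (444–573), 686 (575–812) and 441 (362–531) in the same classes. A Dct UMI was found in 69.4% of MethFix marginal nuclei and 77.8% of basal nuclei, and in 76.8% and 82.0% of those of RNAlater. The median Dct count per nucleus was 1 in marginal and 2 in basal nuclei of both libraries. Thinned to 1000 UMIs per nucleus, 39.9% and 36.5% of the other named nuclei had a Dct UMI, against 99.9% and 99.8% of intermediate nuclei. In fibrocyte nuclei Dct stood at 1201 (984–1451) in MethFix and 301 (181–470) in RNAlater, on 30 and 17 nuclei. In MethFix only 11 of the 30 (36.7%) had a Dct UMI, and 2 nuclei with a barcode in 1 matrix held 88 of the 107 UMIs, while the 18 nuclei with a barcode in both stood at 289 (174–452). The unnamed nuclei, which enter no comparison, had 5240 (5068–5416) and 1040 (939–1149), and 1 MethFix cluster of 82 of the 216 nuclei, led by genes of marginal and of intermediate nuclei, held 3162 of the 3519 Dct UMIs behind the first value.

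Basal nuclei had a higher residual level in CPM than marginal nuclei for Dct, Tyr, Slc45a2 and Mlana, with intervals apart in both libraries. For Slc24a5, on 1 to 7 UMIs a class, the intervals overlap in both. Basal nuclei were also shallower, with a median of 2502 UMIs against 4548 in MethFix and 3402 against 6088 in RNAlater. The part of depth in the difference was not tested. A Tyr UMI was found in 11.6% (9.43%–14.2%) of basal and 8.94% (7.33%–10.8%) of marginal nuclei of MethFix, where the intervals overlap. In RNAlater the shares were 14.5% (11.8%–17.6%) and 6.86% (5.06%–9.04%), with intervals apart. As a share of the intermediate level, Dct stood at 1.82% in marginal and 5.47% in basal nuclei of MethFix and at 1.43% and 5.41% in RNAlater. Slc45a2 stood at 1.86% and 5.76%, and at 1.57% and 5.58%, close to the Dct shares. Tyr was lower, at 0.483% and 1.03% in MethFix and 0.238% and 0.891% in RNAlater. Mlana was far higher, at 11.4% and 36.1%, and at 6.16% and 36.2%, on 17 to 56 UMIs a class. The 5 genes were therefore not in the proportions they had in intermediate nuclei.

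Within intermediate nuclei there were 4.32 Dct UMIs per Tyr UMI (4.25–4.39) in MethFix and 3.68 (3.61–3.74) in RNAlater. In marginal nuclei there were 16.3 (13.4–19.8) and 22.1 (16.6–30.1), in basal nuclei 22.9 (18.9–28.1) and 22.3 (18.3–27.5), and over all other named classes 18.0 (15.99–20.4) and 20.7 (17.9–24.0). Tyr made up 18.1% and 20.6% of the summed UMIs of the 8 genes in intermediate nuclei and 4.95% and 4.30% in the other named classes. Mlana went the other way, from 0.238% and 0.275% of the sum to 1.75% and 1.88%. The residue was thus richer in Dct and Mlana, and poorer in Tyr, than the nuclei of the pigment cells.

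Of the barcodes that the filters removed, those over the mitochondrial limit had a ratio close to that of marginal and basal nuclei, and the others did not. The 771 MethFix and 1184 RNAlater barcodes over the mitochondrial limit of 10%, with a median mitochondrial share of 48.6% and 50.0%, had 18.4 (17.2–19.7) and 19.1 (18.0–20.3) Dct UMIs per Tyr UMI. These intervals overlap those of marginal and basal nuclei of the same library and lie apart from those of intermediate nuclei. The 376 and 346 barcodes over the limit of counts had 6.10 (5.93–6.26) and 3.38 (3.24–3.51), and the 224 and 18 marked as doublets had 5.81 (5.45–6.19) and 7.20 (5.49–9.60). Smaller classes had wide intervals, such as 8.88 (5.37–15.6) in root and 9.73 (5.22–20.1) in fibrocyte nuclei of MethFix. These overlap the intervals of the MethFix doublets and of the MethFix barcodes over the limit of counts. The interval of RNAlater bone-like nuclei overlaps that of the RNAlater doublets.

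**Figure D3:**
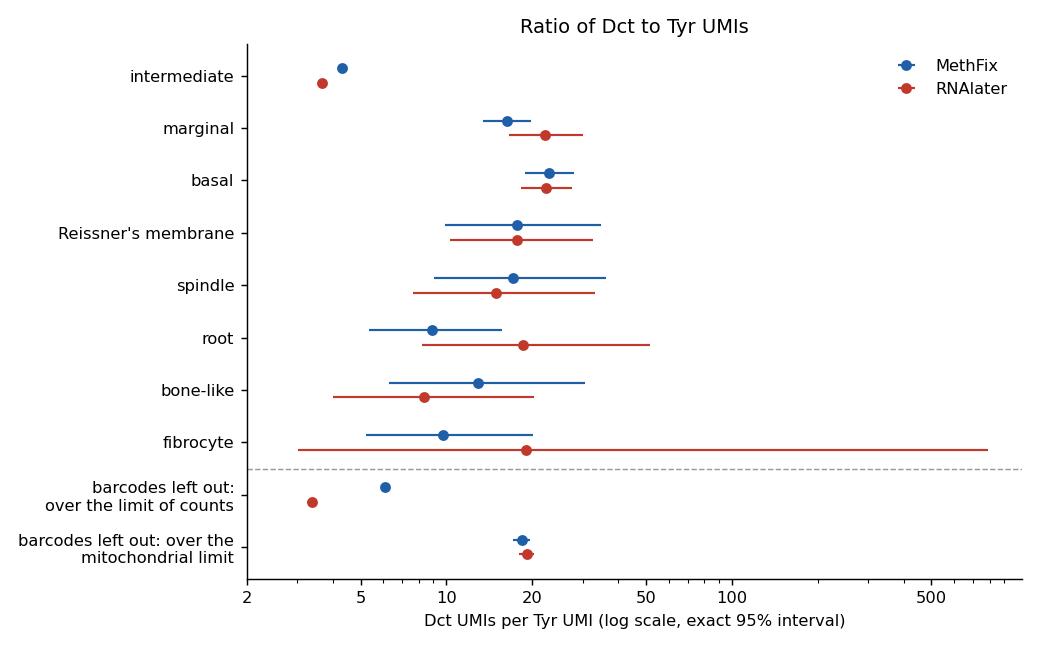
Dct UMIs per Tyr UMI (log axis) in 8 classes of nuclei and, below the dashed line, in the barcodes left out by the limits on counts and on mitochondrial share, with exact 95% intervals, MethFix in blue and RNAlater in red. Intermediate nuclei sit at 4.32 and 3.68, marginal and basal nuclei and the barcodes over the mitochondrial limit between 16.3 and 22.9.

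The residual Dct level moved with the mitochondrial share of a nucleus. In MethFix marginal nuclei with under 0.5% mitochondrial UMIs, Dct stood at 265 CPM (244–287), from 0.5% to 2% at 338 (310–367) and from 2% to 10% at 843 (780–909). In RNAlater marginal nuclei the same bins had 241 (222–262), 304 (274–337) and 415 (348–490). In basal nuclei Dct stood at 551 (493–614), 735 (666–810) and 1811 (1726–1899) in MethFix and at 451 (404–503), 808 (735–886) and 1638 (1556–1722) in RNAlater. Residual Tyr moved likewise in MethFix marginal nuclei, from 13.3 (8.95–18.9) in the lowest to 52.5 (37.9–71.0) in the highest bin, and in basal nuclei, from 26.9 (15.4–43.7) to 71.0 (55.0–90.1) in MethFix and from 27.4 (16.7–42.2) to 58.3 (43.8–76.0) in RNAlater. In RNAlater marginal nuclei Tyr did not, with 12.37, 12.61 and 12.02 CPM on 30, 15 and 4 UMIs, and Mlana had 1 UMI in the highest bin there. In all 4 series the residual Dct level was highest in the bin with the most mitochondrial RNA, and its part in the difference between marginal and basal nuclei, whose median mitochondrial share was 0.596% and 1.23% in MethFix and 0.374% and 0.878% in RNAlater, was not tested.

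In intermediate nuclei themselves, Tyr and Mlana moved with the mitochondrial share in opposite directions over most bins, and Dct in no single direction. Tyr stood at 5413 CPM (5306–5522), 4709 (4588–4832) and 3364 (3177–3559) over the 3 bins in MethFix, with 398, 342 and 114 nuclei, and at 5492 (5387–5598), 4720 (4576–4867) and 4302 (3885–4751) in RNAlater, with 347, 159 and 16 nuclei. Mlana stood at 55.7 (45.3–67.7), 66.7 (53.0–82.7) and 103 (72.3–142) in MethFix and at 67.6 (56.4–80.4), 68.3 (52.0–88.1) and 133 (68.6–232) in RNAlater. The Mlana intervals of the lowest and highest bin lie apart in MethFix and overlap in RNAlater, which has 12 UMIs in the highest bin. Dct lay between 18485 and 22469 in all 6. The ratio of Dct to Tyr in intermediate nuclei went from 3.89 (3.80–3.98) in the lowest to 5.65 (5.31–6.01) in the highest bin of MethFix, and from 3.37 (3.29–3.44) to 4.58 (4.10–5.12) in RNAlater. In the lowest bin it was 19.9 (13.8–29.8) and 19.5 (13.5–29.2) in marginal nuclei, on 30 Tyr UMIs in each library. The part of mitochondrial RNA in the difference in ratio between the classes was not tested.

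**Figure D4:**
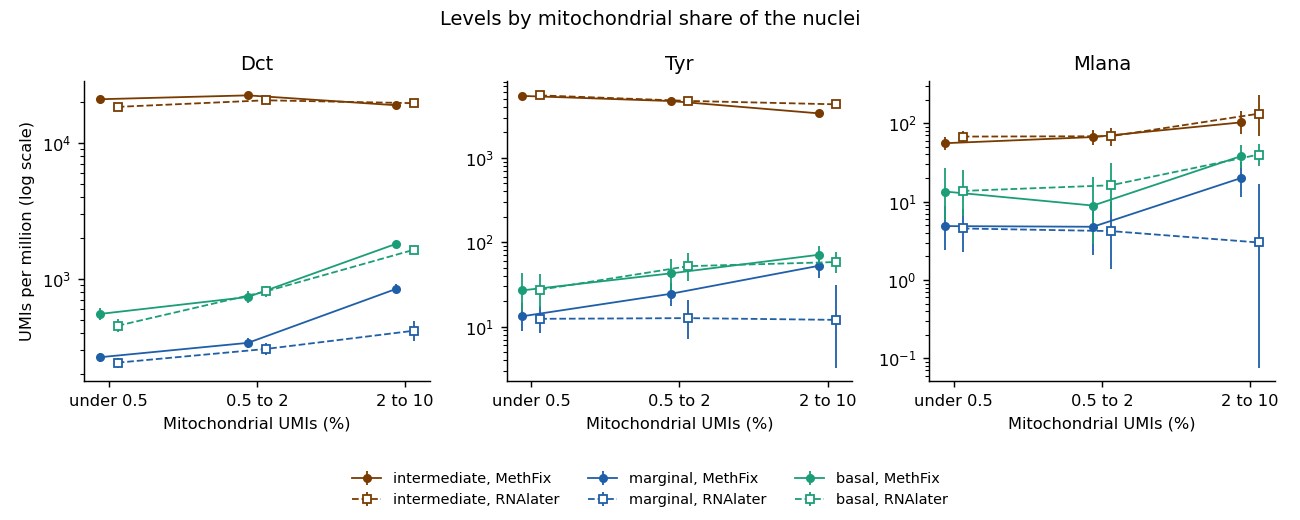
Level of Dct, Tyr and Mlana (CPM, log axes of different range) in intermediate, marginal and basal nuclei by mitochondrial share, filled circles for MethFix and open squares for RNAlater, with exact 95% Poisson intervals. Dct in basal nuclei goes from 551 to 1811 in MethFix and from 451 to 1638 in RNAlater, while in intermediate nuclei it stays between 18485 and 22469.

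The intermediate nuclei fell into 3 clusters in each library, of which the 2 largest are set side by side here. The clusters with more Kcnj13, of 298 MethFix and 215 RNAlater nuclei, shared 202 barcodes, and those with less, of 323 and 232 nuclei, shared 193. Kcnj13, 1 of the genes that named the class, had 317 against 128 CPM in MethFix and 293 against 107 in RNAlater, a log2 ratio of 1.31 (1.06–1.57) and 1.46 (1.17–1.76). Tyr was lower in the clusters with more Kcnj13, by -0.28 (-0.33 to -0.24) and -0.19 (-0.24 to -0.14) on the log2 scale, as was Slc45a2, by -0.23 (-0.35 to -0.11) and -0.20 (-0.33 to -0.08). Dct was higher by 0.10 (0.08–0.12) and 0.13 (0.10–0.15), and Slc24a5 by 0.82 (0.29–1.36) and 0.60 (0.04–1.18). Mlana had -0.77 (-1.27 to -0.28) and -0.35 (-0.81 to 0.10), with a RNAlater interval that includes 0, and Oca2 had 4 against 1 UMIs in RNAlater. The clusters were made from other genes of the same nuclei, so these values describe them and test nothing, and most of the nuclei behind the MethFix and RNAlater values are the same.

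In the third MethFix cluster, of 233 nuclei with a median of 2369 UMIs and 1.58% mitochondrial UMIs, Tyr stood at 3172 CPM and Mlana at 88.9. In the third RNAlater cluster, of 75 nuclei, they stood at 4682 and 63.3. Dct was at 21810 and 22101 in these clusters, Kcnj13 at 189 and 273 and Slc45a2 at 602 and 929. In the third RNAlater cluster Slc45a2 was thus not below the 902 of the cluster with less Kcnj13, while Tyr was below the 5633 there. Over the 3 clusters Dct ranged from 20559 to 22055 in MethFix and from 17951 to 22101 in RNAlater, and Tyr from 3172 to 5824 and from 4682 to 5633.

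The melanin genes stood at similar levels in the matrices. The log2 ratio of RNAlater to MethFix in intermediate nuclei was 0.08 (0.05–0.11) for Tyr, -0.15 (-0.17 to -0.14) for Dct, 0.11 (-0.17 to 0.40) for Mlana, 0.07 (-0.01 to 0.15) for Slc45a2 and 0.05 (-0.30 to 0.39) for Slc24a5. For the 522 nuclei that are intermediate in both, the log2 ratio of UMIs of RNAlater to MethFix had a median of 0.27 over the 10878 genes tested, and the middle 95% of genes lay between -0.14 and 0.83. On that scale Tyr and Slc45a2 stood at 0.25 each, and Mlana at 0.44, while Dct stood at 0.08. RNAlater had more Tyr UMIs in 430 of these nuclei and MethFix in 58, and for Dct these numbers were 357 and 127. The single Tyrp1 UMI lay in the same barcode in both matrices. These values compare 2 matrices that share their nuclei and cannot be read as a difference between preservation methods.

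The rest of the melanosome and melanocyte machinery was followed in a list of 52 genes, of which 51 are in the features. In each library 43 had at least 20 UMIs, 12 were called higher in intermediate nuclei, beside 3.96% and 3.94% of all genes, and 5 in MethFix and 4 in RNAlater were called lower, beside 13.6% and 13.2% of all genes called lower. The median log2 ratio of the list was 0.49 and 0.53, and that of the melanin genes that passed was 5.08 and 5.13. The same 12 genes were called higher in both libraries. Of these, Trpm1 and Trpv2 had the 20 UMIs in MethFix through intermediate nuclei alone, with 94 and 63 UMIs there against 5 each in the other classes. Tfap2a passed in the same way, with counts given below.

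Of the organelle and transport genes, 7 of the 32 and 31 that passed were called higher, beside the same 3.96% and 3.94% of all genes. Gpnmb, a melanosomal glycoprotein related to Pmel, had 1342 CPM against 50.2 in the other classes in MethFix, a log2 ratio of 4.74, and 4.91 in RNAlater. Rab27a, Mlph and Myo5a, the GTPase, adaptor and motor that tether melanosomes to actin, had 4.02, 3.72 and 3.60 in MethFix and 3.88, 4.15 and 3.72 in RNAlater. Rab38, which sorts enzymes to melanosomes, had 2.23 and 2.22, Atp7a, the pump that supplies copper to tyrosinase, had 2.46 and 2.48, and the cation channel gene Trpv2 had 4.90 and 4.67. Of the rest, 22 in each library were called in neither direction, among them Ap3b1 of the AP-3 adaptor, which sorts cargo to lysosome-related organelles, at 0.03 (-0.10 to 0.16) and 0.11 (-0.03 to 0.25). Lyst, a regulator of lysosome size, had 1.62 and 1.51. Sytl2, an effector of RAB27A, had -0.43 and -0.29.

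The genes called lower are named here after their values were seen. Rab27b, the paralogue of Rab27a, stood at 9.15 CPM in intermediate nuclei against 324 in the other classes of MethFix, and its log2 ratio was -5.14 (-5.70 to -4.63) there and -5.64 (-6.37 to -4.99) in RNAlater. Mcoln3, a lysosomal cation channel gene, had -2.23 and -2.26. Lef1, a transcription factor of the Wnt pathway, had 1 UMI in intermediate nuclei of each library against 90 and 75 in the other classes. Kit, the receptor that melanocyte precursors depend on, had 0 and 2 UMIs against 31 and 27, a log2 ratio of -2.13 in MethFix with 3 UMIs in place of 0, which is a bound, and its RNAlater interval of the log2 ratio ran from -5.51 to -0.40. With barcodes found in both matrices the MethFix bound was -1.85 and Kit was not called in that library. Slc7a11, a cystine transporter gene, had -2.85 (-4.33 to -1.67) in MethFix, where it was called, and -0.81 (-2.12 to 0.32) in RNAlater.

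Of the signals and receptors, 3 of the 6 that passed were called higher, beside 3.96% and 3.94% of all genes. The endothelin receptor gene Ednrb had 358 CPM against 10.2 in MethFix, a log2 ratio of 5.13, and 5.22 in RNAlater. Gpr143, the receptor of the melanosome membrane, had 4.69 and 4.91, and Trpm1, a channel of melanocytes, had 5.47 (4.20–7.13) and 5.39 (4.22–6.87). Atrn, the attractin gene of the agouti pathway, had -0.33 and -0.21. Of the transcription factors, 2 of the 5 and 6 that passed were called higher, beside the same shares of all genes. Pax3, a regulator of melanocyte lineage, had 980 CPM against 4.87 in MethFix, a log2 ratio of 7.65 (7.20–8.15), and 8.32 (7.75–8.97) in RNAlater. Tfap2a had 59 UMIs in intermediate nuclei and 1 in the other classes in MethFix, 7.12 (4.59–12.45), and 66 and 1 in RNAlater, 7.41 (4.88–12.73). Sox10, which acts upstream of Mitf, had 1.43 and 1.49, with 211 and 188 CPM in the other classes.

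**Figure D5:**
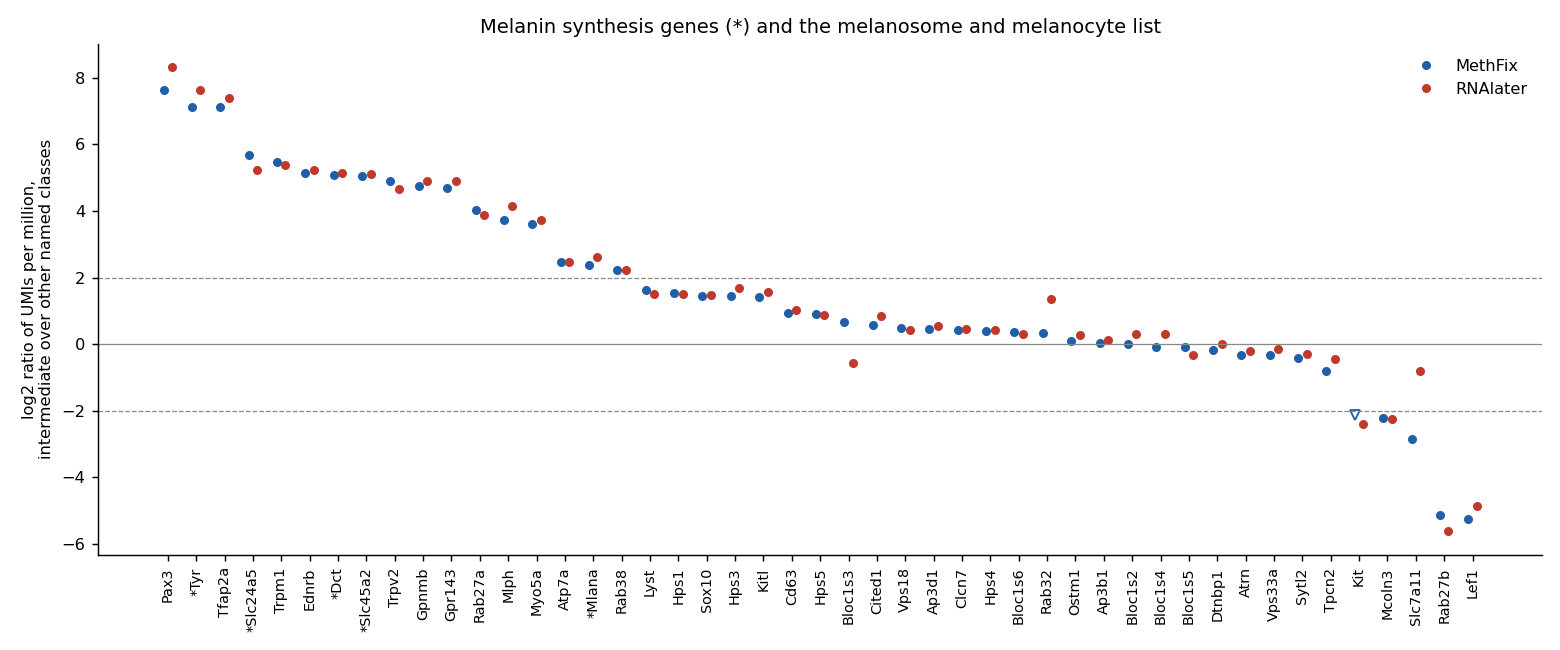
Log2 ratio of CPM in intermediate over all other named nuclei for the 47 genes of the melanin group (starred) and the list that had at least 20 UMIs in both libraries, MethFix in blue and RNAlater in red, ordered by MethFix. Dashed lines mark the ratios of 2 and -2 used for calls, and the open triangle for Kit is a bound set with 3 UMIs for a count of 0. The 5 starred genes lie above 2 in both libraries, between 2.39 and 7.64.

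The genes whose level across classes was most like the mean of the 8 genes were sought among 6825 genes with at least 50 UMIs in the intermediate nuclei of each library, by Pearson's correlation of log2(CPM + 10) over 17 points, each a class in a library. The points share barcodes between the libraries, and the correlation is a description. Intermediate nuclei give a point in each library and the genes needed UMIs there, so a gene high in that class tends to score high. Tyrp1, Pmel and Oca2 were close to nothing in that class, so the mean follows mostly the genes that were called. The 10 genes were Ednrb (0.975), Col5a3 (0.970), Slc24a2 (0.964), Gpr143 (0.962), Lgi4 (0.962), Gm13030 (0.960), Kcnn4 (0.957), Hpse (0.956), Met (0.955), a gene that named the class, and RP24-229D22.1 (0.952). Slc24a2, a potassium-dependent sodium/calcium exchanger gene like Slc24a5, stood at 1198 CPM in intermediate nuclei against 5.62 in the other classes of MethFix, and at 1275 against 4.23 in RNAlater.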

How the data were processed

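By the study's account, nuclei of the dissected SV were captured in droplets and sequenced as 1 library per preservation method. The authors deposited a matrix of raw UMI counts per gene and barcode for each. The matrices were made with Cell Ranger 3.0.1 per the submitters' processing notes, which also name Scanpy 1.4.5. Whether introns were counted is not given in the sources used here. From these counts, barcodes were kept if they had 200 genes or more, no more than 8000 counts and no more than 10% mitochondrial UMIs, and doublets were removed with Scrublet at a rate of 0.1. Each matrix was clustered alone with scanpy 1.11.5 and leidenalg 0.10.2 (4000 variable genes, 30 principal components, 10 neighbours, resolution 1 for MethFix and 1.5 for RNAlater), without the 59 genes of the melanin group and the list. Clusters were named by the marker list with the highest score. The limits of that rule (a score of at least 1, at least 3 markers detected, at least 0.7 of that list's best score and a lead of 0.5 over the next list) were set after the clusters had been seen. UMIs were summed per class. A gene was called at a log2 ratio of 2 in size, with at least 20 UMIs over intermediate and other named nuclei together. With libraries that share barcodes there is no replicate, so no test was run. Doublets numbered 224 in MethFix and 18 in RNAlater, where the caller marked few. The contrast was checked on simulated counts. Genes named were the 8, those of the list past the fold in both libraries, the 5 others of the list with the most UMIs in intermediate nuclei, the 10 most alike in pattern and the defining markers. The 8 genes and the list were chosen with earlier results of these data known. Alternatives were other filters, class definitions, scalings (TMM, edgeR 4.0.16), resolutions and thresholds. Python 3.11.15, numpy 2.4.6, scipy 1.17.1 and pandas 2.3.3 were used. The feature Asip of the list was not used here.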

Additional observations from a re-analysis of the deposited data

Results flagged for a closer look

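The barcodes that the filters left out entered no comparison, and held melanin gene UMIs. In the barcodes over the mitochondrial limit, Dct stood at 7300 CPM in MethFix and 6977 in RNAlater, Tyr at 397 and 365 and Mlana at 120 (119.692) and 158. A Dct UMI was found in 98.4% of these MethFix barcodes and 98.5% of those of RNAlater. In the barcodes over the limit of counts, Dct stood at 6359 and 2576, Tyr at 1043 and 763 and Mlana at 32.1 and 23.4, and the highest Dct count in a barcode was 1464 in MethFix and 267 in RNAlater. Each of these levels was above that in the other named classes of the same library, where Dct had 631 and 541, Tyr 35.0 and 26.2 and Mlana 12.4 and 11.5. Those classes leave out intermediate nuclei, so that order says little. Over all nuclei kept, Dct stood at 6702 and 5592, Tyr at 1445 and 1430 and Mlana at 27.5 and 27.9. Against these, Dct and Mlana were higher and Tyr was lower over the mitochondrial limit. Over the limit of counts Dct and Tyr were lower, and Mlana was higher in MethFix and lower in RNAlater. The origin of the UMIs in the removed barcodes was not tested.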

How the results depend on the processing

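Of 112 values recomputed under alternatives, 92 stayed within the spread or count limit, 20 moved and 0 reversed. Only the log2 ratio of RNAlater to MethFix could be labelled reversed. All 25 counts of melanin genes called stayed within 1.5 times the count of 5. That limit is loose, as it also passes the settings with 4 genes called, where Mlana lost its call. Against a summed level of 27214 CPM in MethFix intermediate nuclei, the value was 27418 without the mitochondrial limit, 27463 with doublets kept, 27921 with barcodes in both matrices, 24798 with barcodes in 1 matrix and 21183 with classes taken from UMIs of Kcnj13, Met and Mitf. With such classes it was 19753 in RNAlater against 25384, and 97.2% and 95.9% of barcodes had a UMI of the 8 genes against 100% of nuclei in both. Of these barcodes 75.9% in MethFix and 75.2% in RNAlater were intermediate nuclei. The level in other classes as a percentage of the intermediate level, 2.60% in MethFix, was 11.5% without the limit of counts, 4.16% without the mitochondrial limit, 4.31% with doublets kept, 2.42% with barcodes in both matrices, 3.55% with barcodes in 1 matrix and 4.12% with UMI classes. In RNAlater, 2.40% became 2.61% without the limit of counts, 2.65% without the mitochondrial limit and 3.74% with UMI classes. With a log2 ratio of at least 1, 19 list genes were called in RNAlater, beside 9.62% of all genes. With the main ratio of 2 there were 12, beside 3.94% of all genes. The log2 ratio of RNAlater to MethFix of the summed level, -0.10, was -0.12 with doublets kept and -0.14 with barcodes in both matrices. The cause of these shifts was not tested. RNAlater has no intermediate nuclei with barcodes in 1 matrix, so that alternative gave no value there. No paired analysis was possible because each preservation method has 1 library, so fewer than 2 replicate numbers are shared, and no test was made. The nuclei with shared barcodes are not replicates. Tyrp1, Pmel and Oca2, with 1 to 7 UMIs in intermediate nuclei, could not be ordered at this depth, and pooled mice give no spread between animals.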
